A study of Musa acuminata AAA Group with 4 samples.

Results

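Copper enzymes of amine and superoxide metabolism are represented here by 2 genes of 31873 seen in any library: Ma01_g13020, described as primary amine oxidase-like, and Ma10_g07820, described as chloroplast copper-zinc superoxide dismutase. They were chosen by gene identifier, with their higher transcript levels under low nitrogen already known, so their levels and changes are given as a description and no test was made of them. The samples were Cavendish banana (Musa acuminata AAA Group) held in clean sand for 60 days, either on complete Hoagland solution (normal N) or on a low-nitrogen solution (low N). Each plant group was divided into an aboveground part, called leaf here although the series' design text counts pseudostems in it, and roots. This gave 4 groups with 1 RNA sequencing library each, namely normal-N leaf, low-N leaf, normal-N root and low-N root. The sources used here do not state how many plants went into a library, and all values are from bulk tissue, in which fewer cells of a type and less RNA per cell cannot be told apart.

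Primary amine oxidases are copper enzymes that oxidise diamines and polyamines such as putrescine, and release an aldehyde, ammonia and hydrogen peroxide. In plants they act in the cell wall space and in peroxisomes, and link the nitrogen held in polyamines to peroxide formation. Superoxide dismutases turn superoxide into oxygen and hydrogen peroxide. The chloroplast copper-zinc form works beside the photosynthetic membranes, and in Arabidopsis its transcript depends on copper supply. A dedicated copper chaperone hands copper to the enzyme.

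The libraries held 4144048 to 4408992 expected counts, which are estimated fragments per gene and need not be whole. Levels are given as FPKM, fragments scaled to gene length and library size, as the authors deposited them. The libraries listed 26796 to 29158 genes, and a gene left out of a list was read as 0. With 1 library per group no difference below has a replicate check, and each interval is a 95% interval that covers counting error alone. Where a pair of levels is given for a tissue, the first is normal N and the second low N. A gene was called higher or lower by size when its log2 change of FPKM + 1 was at least 1 in size and its higher library had at least 2 FPKM.

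The amine oxidase Ma01_g13020, a model of 2169 bases, was at 8.94 FPKM in normal-N leaf, 262.7 FPKM in low-N leaf and 12.13 FPKM in low-N root, and at 0 in normal-N root. Low-N leaf stood far above the other libraries, and the gene had no count at all in normal-N root. Behind the leaf levels were 82 expected counts at normal N and 2393 at low N, and behind the low-N root level 118. All were whole numbers within 0.005, and no other gene of the same length had equal values in every library. The count of 0 allows a level of up to 0.315 FPKM by a floor of 3 counts. In low-N leaf the transcript ranked 352nd of 26951 listed genes by FPKM, against 12500th of 26796 genes on the complete solution. In low-N root it ranked 12584th of 29130, near the middle of the list.

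In leaf this was a 29.3-fold higher level under low N (23.5 to 37.0). The log2 change of 4.73 was the most positive of all 21715 leaf genes at the filter, with or without a description. In root the level was at least 39.2-fold higher under low N by the floor of 3 counts, a bound that leaves out the counting error of the low-N library. The root log2 change of 3.71 was the 6th most positive of 24476. Of the leaf genes at the filter 11.7% were called higher, and of the root genes 4.67%. These contrasts chose the gene, so nothing is read from its place among them.

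Whether the amine oxidase changed more in leaf or in root depended on how the 0 was treated. With a pseudocount of 1 the change was larger in leaf, 4.73 against 3.71 on the log2 scale. With a pseudocount of 0.1 it was 4.86 in leaf and 6.93 in root. The authors' deposited table gives a log2 ratio of 13.57 for root and 4.88 for leaf, because it writes 0.001 FPKM where the normal-N root library lists no value. The difference between the tissues was not tested.

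The chloroplast superoxide dismutase Ma10_g07820, a model of 675 bases, was at 31.29 FPKM in normal-N leaf, 191.02 FPKM in low-N leaf, 20.27 FPKM in normal-N root and 73.09 FPKM in low-N root. Both low-N libraries stood above both normal-N libraries. The expected counts were 85.99, 521.28, 59 and 213. Those of the leaf libraries were not whole, which can arise where a small part of the fragments is divided with another gene. In leaf the level was 6.09-fold higher under low N (4.84 to 7.74), and in root 3.60-fold higher (2.68 to 4.89). The log2 changes of 2.57 and 1.80 ranked 121st of 21715 in leaf and 265th of 24476 in root.

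**Figure D1:**
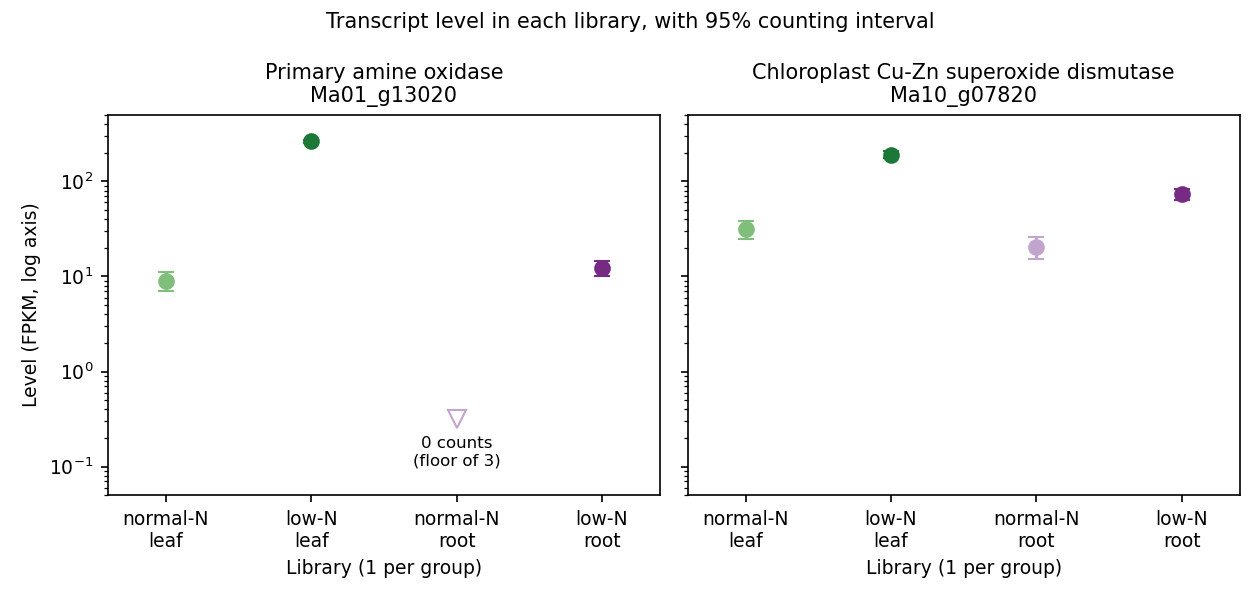
Level of the amine oxidase (left) and the chloroplast superoxide dismutase (right) in FPKM on a log axis, 1 point per library, with bars for the 95% counting interval. Low-N leaf is the highest library for both genes, at 262.7 and 191.02 FPKM, and the open triangle marks the 3-count floor of 0.315 FPKM for normal-N root, where the amine oxidase had 0 counts.

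Both genes followed the same order over the 4 libraries, from low-N leaf through low-N root and normal-N leaf to normal-N root, except that median-ratio rescaling put normal-N leaf of the amine oxidase level with low-N root (10.92 and 10.90 FPKM). For the amine oxidase, low-N leaf was 21.6-fold above low-N root (17.9 to 26.2). Low-N root was only 1.36-fold above normal-N leaf, with an interval of 1.02 to 1.82 whose lower end is close to equality. Normal-N leaf was at least 28.8-fold above normal-N root by the floor, a bound that leaves out the counting error of the 82 leaf counts. The lower end of the 95% interval for this ratio was 22.9. For the superoxide dismutase the steps were more even. They were 2.60-fold from low-N leaf to low-N root (2.21 to 3.07), 2.34-fold from there to normal-N leaf (1.81 to 3.04) and 1.54-fold from there to normal-N root (1.09 to 2.18). No spread between plants is known, so these neighbours cannot be called different beyond their spread.

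The tissue difference was therefore large for the amine oxidase under both solutions and small for the superoxide dismutase under normal N. On the log2 scale, leaf over root was 3.31 under normal N and 4.33 under low N for Ma01_g13020. For Ma10_g07820 it was 0.60 under normal N, below the size limit, and 1.37 under low N. Rescaling the FPKM by median ratios raised the normal-N value of the superoxide dismutase to 1.08, past the size limit. Of all genes at the filter, 20.1% were called higher in leaf than in root under normal N (25724 genes) and 22.8% under low N (25802 genes). The comparisons share libraries, so they are not independent of the nitrogen contrasts.

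Of 19179 genes at the filter in both tissues, 0.626% (120 genes) were called higher under low N in leaf and in root, and both genes were among them, as their choice fixes. The same share for genes lower in both tissues was 0.824%. Median-ratio rescaling moved the median log2 change of all leaf genes from 0.12 to -0.08, and the share of leaf calls that were higher from 63.6% to 46.5%. Rescaling to equal upper quartiles moved that share to 52.8%. Between leaf and root under normal N, median-ratio rescaling moved the share of calls that were higher in leaf from 32.3% to 45.0%. Over these rescalings and pseudocounts, the leaf change of the superoxide dismutase lay between 2.37 and 2.67 on the log2 scale and its root change between 1.63 and 1.89.

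Among the primary amine oxidases that carry a description, Ma01_g13020 was a minor gene in normal-N leaf and the most abundant in low-N leaf. Descriptions exist only for the 3396 genes of the authors' filtered tables, so every gene below had been picked for change in leaf or root, and the counts below are no independent support for a direction. On every list but the leaf markers, each gene called in a tissue had been picked by the authors' table of that tissue, so the calls follow the picking. For each list, the share to read its counts against is that among the filtered-table genes at the filter, which was 53% higher and 26.1% lower in leaf, and 15.9% higher and 26.4% lower in root. The 5 described amine oxidases summed in leaf to 92.98 FPKM on the complete solution and to 440.88 FPKM on the low-nitrogen one. Ma01_g13020 made up 9.61% and 59.6% of these sums. In root the sums were 25 and 56.74 FPKM, of which the gene made up 0% and 21.4%.

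The other 4 did not all move alike. Ma08_g14400 was the most abundant of the 5 in normal-N leaf, at 59.24 FPKM, and was at 125.38 FPKM in low-N leaf, 7.41 FPKM in normal-N root and 32.13 FPKM in low-N root. It was 2.11-fold higher in leaf (1.84 to 2.42) and 4.32-fold higher in root (3.07 to 6.19), but its leaf call was lost after median-ratio rescaling (log2 change 0.86) and upper-quartile rescaling (0.94). Ma00_g05010 was at 7.97 and 23.59 FPKM in leaf and at 1.48 and 2.28 FPKM in root. The models of Ma08_g14400 and Ma00_g05010 are short, 1275 and 657 bases, and their counts were not whole in any library, so their levels are uncertain because fragments may be shared with other copies.

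Ma08_g19930 went in opposite directions, from 15.43 to 28.98 FPKM in leaf and from 14.02 to 4.05 FPKM in root, where it was 3.47-fold lower (2.39 to 5.15). Its leaf change of 0.87 on the log2 scale was below the size limit. Ma08_g03220 was weak, at 1.40 and 0.23 FPKM in leaf and at 2.09 and 6.15 FPKM in root, 2.94-fold higher in root (1.72 to 5.23). By size, 3 of the 4 described amine oxidases at the filter were higher in leaf and 0 lower. In root 3 of 5 were higher and 1 lower. These counts and the medians include Ma01_g13020, which is higher in both tissues as its choice fixes. Of the others, Ma08_g14400 was called higher in both tissues, Ma00_g05010 in leaf alone and Ma08_g03220 in root alone. Ma08_g19930 was the lower one in root. The medians were 1.26 in leaf and 1.21 in root, beside 0.12 and -0.01 over all genes at the filter, and 1.04 and -0.13 over the genes of the filtered tables.

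The described superoxide dismutases were both of the copper-zinc kind. No iron or manganese form carried a description in the filtered tables. Ma02_g04310, described without a chloroplast label, was at 47.27 FPKM in normal-N leaf, 125.66 FPKM in low-N leaf, 372.65 FPKM in normal-N root and 709.1 FPKM in low-N root. It was thus a root-abundant gene, while the chloroplast form was the more abundant one in low-N leaf alone. The change of Ma02_g04310 was 2.65-fold in leaf (2.06 to 3.44) and 1.90-fold in root (1.73 to 2.08). Its root log2 change of 0.93 was below the size limit, and 1.02 after rescaling to equal total FPKM. The ratio of the chloroplast form to it, in FPKM, was 0.662 in normal-N leaf and 1.52 in low-N leaf, and 0.054 and 0.103 in root.

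The copper chaperone for superoxide dismutase, Ma04_g31460, which hands copper to the enzyme, was at 28.52 FPKM in normal-N leaf, 140.93 FPKM in low-N leaf, 16.01 FPKM in normal-N root and 23.85 FPKM in low-N root. Its level stood close to that of the chloroplast enzyme in 3 libraries, with a ratio of enzyme to chaperone of 1.10, 1.36 and 1.27 in normal-N leaf, low-N leaf and normal-N root. In low-N root the ratio was 3.06. The chaperone was 4.93-fold higher in leaf (3.99 to 6.13) and 1.49-fold higher in root (1.07 to 2.08), where its log2 change of 0.55 was below the size limit. Counting the chaperone, 3 of 3 genes found by the name superoxide dismutase were called higher in leaf and 1 of 3 in root, and none lower. All 3 had been picked for change in leaf, where 53% of the filtered-table genes were higher, and 1 in root, where 15.9% were. The 1 in root was Ma10_g07820, whose higher level in both tissues was fixed by its choice. Of the others, Ma02_g04310 and Ma04_g31460 were called higher in leaf and were not called in root.

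**Figure D2:**
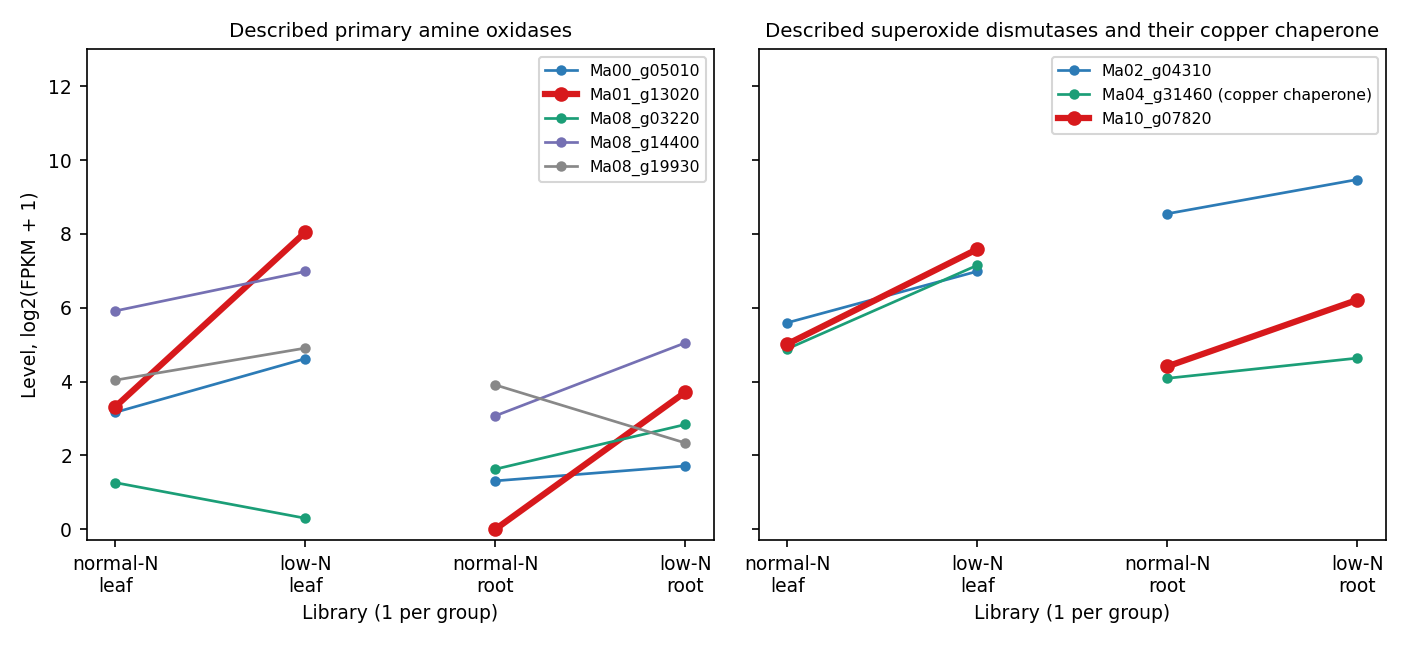
Levels as log2(FPKM + 1) of the 5 described amine oxidases (left) and of the copper-zinc superoxide dismutases with their copper chaperone (right), 1 point per library, with lines joining normal-N to low-N within a tissue. The amine oxidase Ma01_g13020 and the superoxide dismutase Ma10_g07820 are drawn in bold red; Ma08_g19930 is higher in low-N leaf and lower in low-N root, at 4.05 FPKM against 14.02 FPKM.

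The list of copper transport and copper-binding genes had more lower than higher calls under low N. Of 10 listed genes at the filter in leaf, 2 were higher and 4 lower by size, with a median log2 change of -0.79. Of 10 in root, 2 were higher and 6 lower, with a median of -1.08. Over all genes at the filter 11.7% were called higher and 6.70% lower in leaf, and 4.67% higher and 6.90% lower in root. Of the filtered-table genes 53% were higher and 26.1% lower in leaf, and 15.9% higher and 26.4% lower in root. More lower than higher calls in root were thus not particular to the copper list, while in leaf the background had more higher calls. The list also holds 3 metallothioneins and a heavy metal-associated isoprenylated protein, which are not named for copper uptake or delivery. Without them, a division made after the values were seen, 1 of 6 was higher and 3 lower in leaf, and 1 of 6 higher and 4 lower in root. The higher one in leaf was the chaperone Ma04_g31460, already counted with the superoxide dismutases. On the full list, the 6 genes called in leaf and the 8 in root had all been picked in that tissue. Copper transporter 6-like Ma02_g05010, of a family that brings copper into cells, was at 208.52 and 70.75 FPKM in leaf and at 17.37 and 2.63 FPKM in root. It was 2.95-fold lower in leaf (2.41 to 3.64) and 6.62-fold lower in root (2.57 to 21.7).

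The copper transport protein CCH (Ma06_g18740), a small copper chaperone of the cytosol, stood at 1348 and 386.28 FPKM in leaf, 3.50-fold lower (3.16 to 3.88). The root values were 706.42 and 339.33 FPKM, and the 2.09-fold lower level there (1.86 to 2.34) was a call lost after median-ratio and total-FPKM rescaling. A second copper transporter 6-like gene, Ma01_g03660, was at 10.15 and 0.53 FPKM in root, from 19 and 1 counts, and was hardly seen in leaf. The chloroplast copper-transporting ATPase PAA2 (Ma08_g31080), which in Arabidopsis moves copper inside the chloroplast, went the other way. It was at 20.2 and 38 FPKM in leaf, 1.88-fold higher (1.59 to 2.22), which was below the size limit, and at 5.63 and 15.69 FPKM in root, 2.78-fold higher (2.09 to 3.73).

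The metallothioneins on the copper list bind copper and zinc and were abundant. Ma06_g27920 was at 6215 and 2282 FPKM in leaf and at 101.06 and 338.77 FPKM in root, 2.73-fold lower in leaf (2.58 to 2.90) and 3.36-fold higher in root (2.58 to 4.42). Ma03_g16510, of type 3, was at 4017 and 1085 FPKM in root, 3.71-fold lower (3.43 to 4.02).

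Other copper enzymes went both ways. In leaf 5 of 8 at the filter were higher and 3 lower, and in root 9 of 18 were higher and 5 lower. The 3 lower in leaf were the polyphenol oxidases Ma08_g09150, Ma08_g09160 and Ma08_g09170, which were also among the 9 higher in root. How their fragments were divided among copies is uncertain. All 8 in leaf and the 14 called in root had been picked in that tissue, and of the filtered-table genes 53% were higher and 26.1% lower in leaf, and 15.9% and 26.4% in root. L-ascorbate oxidase (Ma05_g04110), a copper enzyme of the cell wall space, was at 5.47 and 35.1 FPKM in leaf, 6.41-fold higher (4.58 to 9.18), and at 10.58 and 9.93 FPKM in root. In leaf the polyphenol oxidase Ma08_g34740 was at 16.06 and 108.12 FPKM. The laccases, which polymerise lignin precursors, were below the filter in leaf and split in root, where 4 of 9 were higher and 5 lower. Laccase-22-like Ma09_g03710 was at 24.54 and 3.22 FPKM in root, 7.74-fold lower (5.04 to 12.4). Laccase-3-like Ma03_g09740 was at 2.90 and 18.81 FPKM there, 6.48-fold higher (4.12 to 10.7). The polyphenol oxidase Ma08_g09150 was at 347.58 and 3391 FPKM in root, 9.73-fold higher (9.36 to 10.13), with counts that were not whole. The small blue copper proteins, most of them listed at under 2 FPKM in leaf, had 2 of 3 higher in leaf, and 6 of 11 higher and 3 lower in root. Those called in leaf, Ma03_g33000 and Ma06_g20300, are described as early nodulin-like protein 1, of a family that mostly lacks the copper ligands. So are Ma02_g00870, Ma07_g05370 and Ma11_g20130 among those higher in root. Ma11_g20130 was at 1.51 and 18.46 FPKM there.

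Polyamines are substrates of amine oxidases. Of the listed genes for their synthesis and conjugation, 1 of 4 at the filter was called higher and 0 lower in leaf, where the filtered-table shares were 53% and 26.1%. The arginine decarboxylase-like gene Ma10_g08570, of the first step from arginine to putrescine, was at 3.56 and 8.90 FPKM in leaf, 2.50-fold higher (1.63 to 3.92), a call lost after median-ratio rescaling. In root 1 of 6 was higher and 3 lower, beside 15.9% and 26.4%, and 5 of the 6 had been picked there. Among the 3 lower was a conjugating gene, agmatine coumaroyltransferase-2-like Ma08_g20200, at 15.56 and 5.81 FPKM in root. Arginine decarboxylase-like Ma01_g03420 was at 29.75 and 10.28 FPKM in root, 2.90-fold lower (2.30 to 3.68). Thermospermine synthase ACAULIS5 (Ma03_g07820) was at 40.92 and 14.43 FPKM in root, and S-adenosylmethionine decarboxylase 2 (Ma09_g13000), which supplies the aminopropyl group of spermidine, at 11.32 and 23.87 FPKM.

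Of 3 aldehyde dehydrogenases, a family that includes enzymes oxidising the aldehydes left by amine oxidases, 1 was higher and 1 lower in leaf, beside shares of 53% and 26.1% in the filtered tables, and none passed the size limit in root. The described members belong to other branches by name. Family 2 member C4-like Ma03_g27650 was at 3.63 and 10.17 FPKM in leaf, and family 2 member C4-like Ma06_g06420 at 59.91 and 27.86 FPKM, a lower call lost after rescaling to equal total FPKM (log2 change -0.98).

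The described superoxide-producing genes were higher in leaf, and the genes of the peroxide-removal list called there were lower. All 5 described respiratory burst oxidase homologs, which make superoxide at the cell surface, were higher by size in leaf, and 0 of 5 were called in root. All 5 had been picked in leaf and none in root, so both counts follow the picking, and 53% of the filtered-table genes were higher in leaf. Their median log2 change was 1.80 in leaf and -0.18 in root. Homolog B (Ma06_g13290) was at 2.36 and 18.99 FPKM in leaf, 8.11-fold higher (5.46 to 12.5), and at 35.18 and 39 FPKM in root. Homolog A-like (Ma06_g33550) lost its leaf call after median-ratio and upper-quartile rescaling, which left 4 of 5. The homolog B models Ma10_g17360 and Ma10_g17370 are short, 840 and 1566 bases, beside 2817 to 2826 bases for the others. Whether they are pieces of a single gene was not tested. Ma10_g17360 rests on 3 and 24.55 expected counts in leaf.

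Of 8 genes on the peroxide-removal list, 5 were lower and 0 higher in leaf, and the median was -1.02. The 5 are those picked in leaf, where 26.1% of the filtered-table genes were lower. Peroxiredoxin Q of the chloroplast (Ma05_g16490), which reduces peroxides, was at 1539 and 448.61 FPKM in leaf, 3.44-fold lower (3.22 to 3.67). The chloroplast 2-Cys peroxiredoxin BAS1-like gene Ma06_g19550 was at 383.84 and 172.56 FPKM in leaf, 2.23-fold lower (2.02 to 2.47). In root 1 of 7 at the filter was higher and 2 lower, beside 15.9% and 26.4% of the filtered-table genes. The list also holds monodehydroascorbate reductases, which renew ascorbate and do not themselves remove peroxide. Of these, Ma06_g10680 was among the 5 lower in leaf, at 143.06 and 70.27 FPKM, and Ma05_g17240 among the 2 lower in root. Peroxiredoxin-2E-2 (Ma10_g11440) was at 21.72 and 51.39 FPKM in root, 2.36-fold higher (1.76 to 3.21). Rescaling to equal total FPKM took 2 of the 5 leaf calls.

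**Figure D3:**
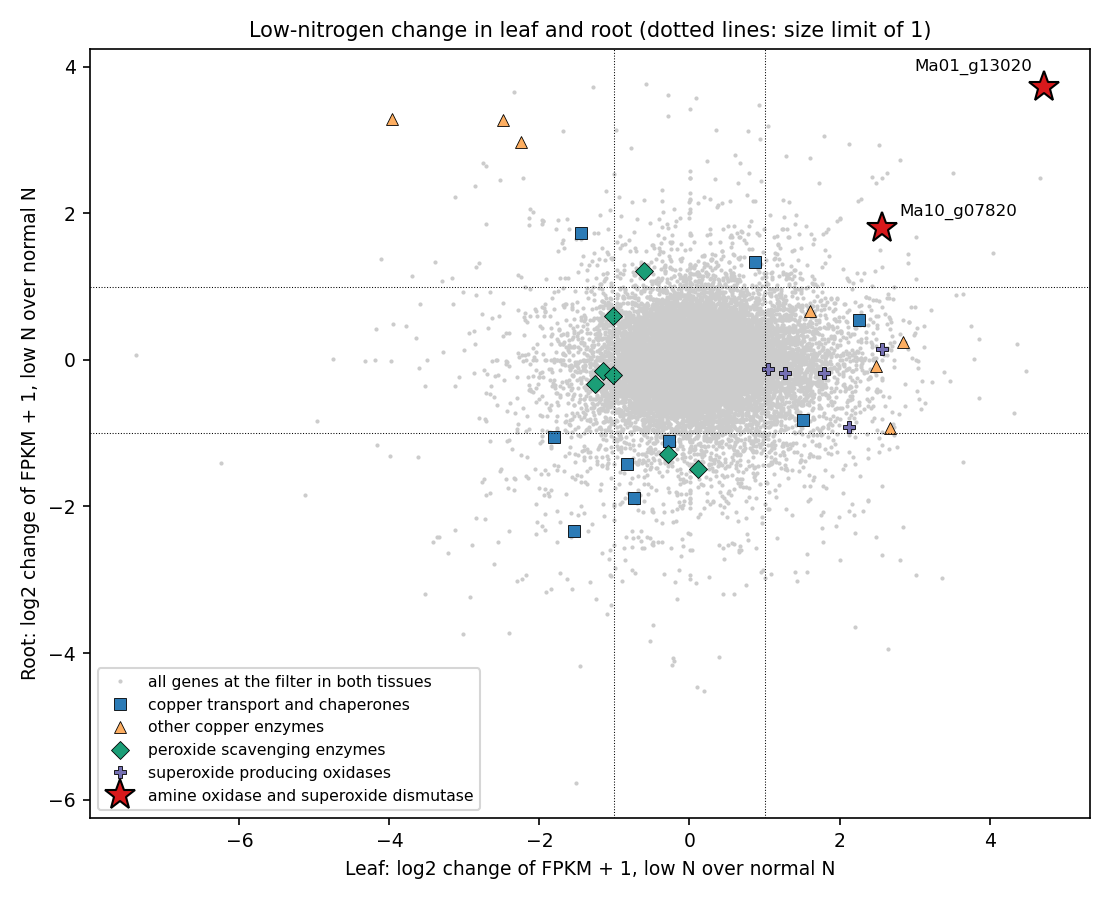
Log2 change of FPKM + 1, low N over normal N, in leaf (horizontal) and root (vertical) for 19179 genes at the filter in both tissues (grey), with 4 gene lists in colour and dotted lines at the size limit of 1. The amine oxidase at 4.73 and 3.71 and the superoxide dismutase at 2.57 and 1.80 lie in the upper right corner, while copper transporter 6-like Ma02_g05010, at -1.55 and -2.34, lies on the lower left.

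Leaf marker genes of photosynthesis differed along with these leaf changes. Of 24 leaf markers (RuBisCO small chain, chlorophyll a-b binding and photosystem I genes), 23 of 23 at the filter were lower by size in low-N leaf, all 23 picked there, beside 26.1% of the filtered-table genes. Rescaling to equal total FPKM took 2 of these calls. The summed level of the 24 in leaf was 52903 FPKM on the complete solution and 21724 FPKM on the low-nitrogen one. In root the sum was 307.61 and 164.13 FPKM, and 6 and 7 of the 24 were at 0. RuBisCO small chain gene Ma07_g15870 went against its list, at 1.89 and 0.95 FPKM in leaf but 224.45 and 81.55 FPKM in root, which was 73.0% and 49.7% of the root sums. The other 23 summed to 83.16 and 82.58 FPKM in root. The root marker found, a casparian strip membrane protein (Ma08_g07640), was at 0 in both leaf libraries and at 3.75 and 16.87 FPKM in root. Apart from Ma07_g15870, and from Ma05_g08930 at 1.26 FPKM in low-N leaf and 5.14 FPKM in low-N root, each leaf marker was higher in leaf than in root under both solutions. A different share of pseudostem or of leaf ages in the aboveground libraries, and its part in the levels of both copper enzymes and of the listed genes, was not tested.

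The described genes with the most similar profile were sought by the distance between log2(FPKM + 1) profiles, centred on each gene's mean, over the 4 libraries and 19380 genes with a mean of at least 5 FPKM. The amine oxidase had no close neighbour. The nearest, sphinganine C(4)-monooxygenase 1-like (Ma03_g01410), stood at a distance of 2.33, at 20.33, 124.77, 1.80 and 5.69 FPKM in normal-N leaf, low-N leaf, normal-N root and low-N root. Next came WRKY transcription factor 50 (Ma03_g21270) at 2.69, ammonium transporter 3 member 1-like (Ma05_g28430) at 2.75, vacuolar amino acid transporter 1 (Ma06_g08530) at 2.82 and a benzoyltransferase-like gene (Ma01_g17340) at 2.89. None of these 5 had a root change as large as the amine oxidase's 3.71, the highest being 1.26 for Ma03_g01410.

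The superoxide dismutase had much closer neighbours. A BTB/POZ domain protein (Ma07_g21680) stood at a distance of 0.396, at 13.53, 83.64, 7.32 and 22.61 FPKM in the same order of libraries. It was followed by WRKY transcription factor 40 (Ma01_g00720) at 0.780 and inorganic phosphate transporter 1-10 (Ma03_g03540) at 0.820. Early nodulin-like protein 1 (Ma03_g33000) at 0.879 and equilibrative nucleotide transporter 3-like (Ma06_g02320) at 0.934 completed the 5. In each case 3 genes without an informative description lay nearer than the fifth gene. Over 4 libraries such likeness is a description of these samples.

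**Figure D4:**
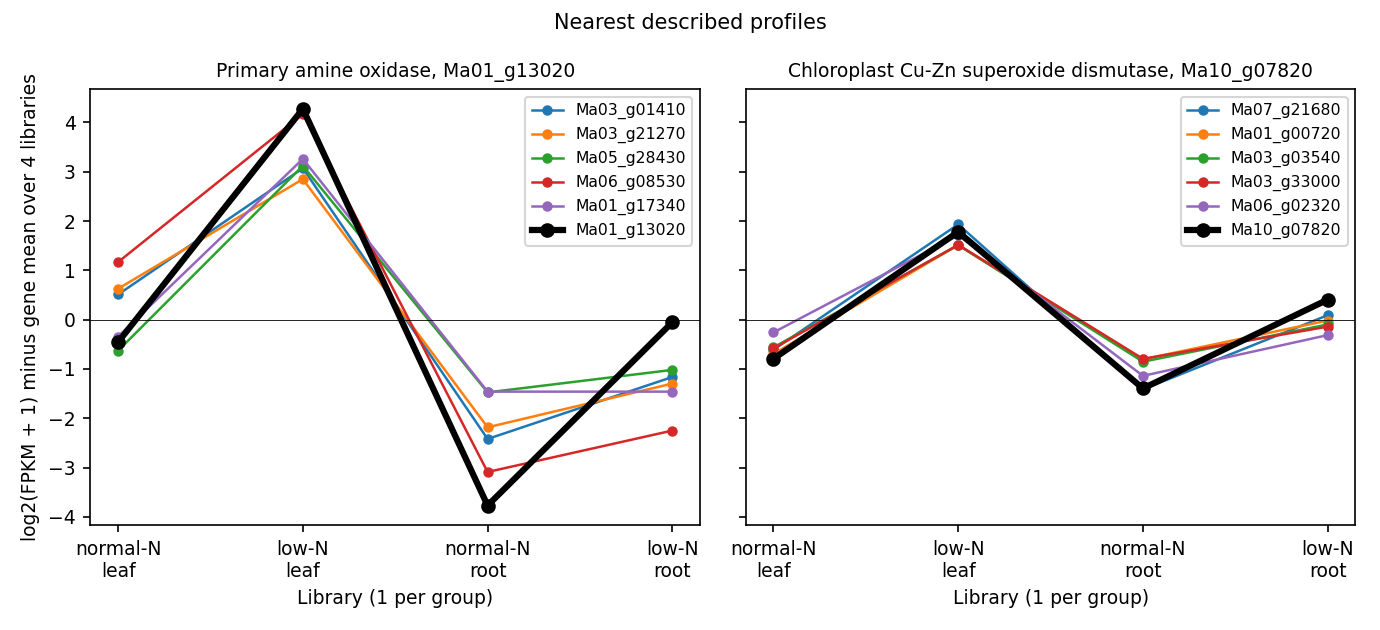
Profiles of log2(FPKM + 1) minus the gene's mean over 4 libraries for the amine oxidase (left) and the superoxide dismutase (right), both in black, with the 5 nearest described genes of each in colour. The lines on the right lie closer to the black one, with distances of 0.396 to 0.934. Those on the left spread apart in the root libraries, with distances of 2.33 to 2.89.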

How the data were processed

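Messenger RNA was enriched on poly-T beads, fragmented and reverse transcribed from random primers, per the labels' protocols, which state no step that marks strand. BWA and Bowtie are named in the submitters' processing notes, without role or version. Counting tool, genome build and annotation: not given in the sources used here. Per the file headers, the authors' values for a library are an expected count, an FPKM and a length for every gene seen. A filtered table of each tissue was deposited too, with a log2 ratio, p-values and an FDR for low N over normal N (2225 genes in leaf, 1354 in root). These deposited p-values compare single libraries and were not used.

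The 2 genes, the 11 lists (search terms on BLAST descriptions) and the naming rule were chosen with earlier results of these data known. The rule took from each list up to 3 genes per direction and tissue with at least 5 FPKM, all amine oxidases and superoxide dismutases, and 5 nearest described profiles per gene, of which the text names part. Gene identifiers did not match the RefSeq table of the Baxijiao assembly (0 of 2), whose builds may differ, but the best KEGG matches did (2 of 2, LOC103993259 and LOC104000193), so no coordinates are given.

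Changes are log2 of (FPKM + 1) ratios, which understate the change of weak genes. Folds are ratios of expected counts, rounded and set against library totals, with 95% Clopper-Pearson intervals (exact), and figure bars are exact Poisson intervals (Python 3.11.15, pandas 2.3.3, SciPy 1.17.1). A library at 0 was bounded by a floor of 3 counts. Calls and intervals were tried on simulated counts that held counting error alone, with changes planted in well-counted genes. That trial covers neither a library at 0 nor a spread between plants. Alternatives were pseudocounts of 0.1 and 5, no FPKM filter or one of 10, calls at a log2 size of 2, 3 rescalings, and list matching with the KEGG text added.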

Additional observations from a re-analysis of the deposited data

Results flagged for a closer look

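Of 95 listed genes, 5 were called by size in opposite directions in leaf and root, with 1 library per group, so the difference between the tissues was not tested. They are given by their leaf log2 change minus their root log2 change. The polyphenol oxidases Ma08_g09150, Ma08_g09160 and Ma08_g09170, copper enzymes that brown wounded tissue, had differences of -7.24, -5.75 and -5.21. Ma08_g09150 was at 25.61 and 0.71 FPKM in leaf and at 348 and 3391 FPKM in root. Their expected counts were not whole in most libraries, so how their fragments were divided among copies is uncertain. The metallothionein Ma06_g27920 had a difference of -3.18. A photosystem I subunit N gene, Ma00_g01500, had a difference of -2.83 but only 1 and 4 expected counts in root. Neither the amine oxidase Ma01_g13020 nor the superoxide dismutase Ma10_g07820 was among them.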

How the results depend on the processing

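No paired analysis was possible because each group had 1 library, and for the same reason no library could be left out. Under the alternatives run, no change of either gene reversed. Of 46 recomputed changes and differences of the 2 genes, 6 were marked as moved beyond a counting margin, all of the amine oxidase Ma01_g13020. Because of the 0 in normal-N root, its root fold has a counting interval from 31.4 with no upper end. Its leaf-over-root fold under normal N has one from 22.9, also with no upper end. The margin for these ratios did not hold that full error, so their marks do not show a move beyond counting error. With a pseudocount of 5 the log2 change of the amine oxidase was 4.26 in leaf and 1.78 in root. Its leaf-over-root difference was then 1.48 under normal N and 3.97 under low N. With a pseudocount of 0.1 it was 6.93 in root and the leaf-over-root difference under normal N 6.50, since the 0 in normal-N root then weighs more. With that pseudocount 1 of its 5 nearest profiles was shared. Counts of called genes moved as follows. With a pseudocount of 5, 1026 leaf genes were higher and 593 lower, and 341 root genes higher and 680 lower. With the filter of 10 FPKM, the counts were 1388 and 778 in leaf and 491 and 852 in root. With the size limit of 2, they were 426 and 272 in leaf, 185 and 393 in root, 2806 and 5910 for leaf over root under normal N, and 3044 and 5336 under low N. Median-ratio rescaling gave 2268 lower leaf genes. With the KEGG text added, amine oxidases had 10 genes higher in leaf and 3 lower in root, most of the additions being receptor kinases and uncharacterised proteins. Polyamine synthesis and conjugation then had 3 higher in leaf, and aldehyde dehydrogenases 2 higher and 2 lower in leaf. The peroxide-removal list had 9 lower in leaf and 4 lower in root, and copper transport 4 higher in root. Over 570 combinations of listed gene, tissue and rescaling, no call reversed, 12 were lost and 3 gained. Depth limits the amine oxidase in normal-N root, where 0 counts allow up to 0.315 FPKM.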
